A study of Homo sapiens with 18 samples.

Results

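Riboflavin-depleted Caco-2 cells had lower signals than control cells for 6 of 10 plasma proteins of the fetal liver, in every set of arrays at each of 3 times on the brightest probe set of each gene. The share of all genes that were lower in every such comparison is not given here. The genes described are AFP, ALB, FGA, FGB, FGG, SERPINA1, TTR, TF, AMBP and AHSG, 10 of the 19775 genes that a single symbol names on the array. They were chosen by their function and by their measured signals in the 6 groups of arrays, with earlier results of these data known, so every difference between groups given for them is a description and carries no test. Each gene was found through all probe sets whose symbol was exactly its own, 24 in all, of which 16 lay past the filter on dim signals. The probe set with the highest mean over the arrays stood for its gene. By it 9 of the 10 genes were past the filter, a mean of 5.15 on the scale log2(signal + 16), and TF was not. AMBP lay just inside at 5.18 and TF just outside at 4.88.

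The depleted cells were Caco-2 kept in DMEM free of riboflavin (vitamin B2) and collected after 24, 48 or 72 h, and the control cells were Caco-2 in standard DMEM collected at the same times. Caco-2 is a single established line from a human colon carcinoma, often grown to stand in for enterocytes. All groups had foetal calf serum with penicillin and streptomycin, and the labels do not say which arrays had dialysed serum. Each of the 6 groups had 3 arrays, 18 in all, and the running numbers in the labels form 3 sets with 1 array of every group. The labels do not say that replicates were separate cultures, so a p-value here covers the spread among these arrays alone. The arrays of set 2 stood apart, with median signals of 25.6 to 31.3 against 18.4 to 23.3 in the other sets and highest signals of 27380.2 to 31409.8 against 6904.8 to 8574.5. Differences were also taken from sets 1 and 3 alone for this reason. Intestinal and epithelial markers gave median signals of 5189.0 for the adhesion molecule EPCAM, 3800.0 for the cadherin CDH1 and 1103.8 for the brush border protein VIL1, all high, but CDX1, KRT20 and FABP2 at only 11.8, 19.4 and 4.1.

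As background, the liver supplies most proteins of the blood plasma, and a hepatocyte secretes them through the endoplasmic reticulum. AFP is the main serum protein of the fetus and gives way to its relative ALB after birth, and both genes lie side by side on chromosome 4. The 3 fibrinogen chains come from a gene cluster on the same chromosome, are needed together for the clotting protein and belong to the acute phase response driven by interleukin-6. Caco-2 cells are known to make several of these proteins in culture.

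The promoters of ALB, AFP and the fibrinogen chains, all lower in depleted cells, and of AHSG, which went the other way, are shown first. The reason is that C/EBP factors, transcription factors of liver genes, are described further on. SERPINA1 was lower too, but its promoters are not printed. The promoters run from 250 bases before to 50 after the gene start in RefSeq (GRCh38.p14), on the strand of the gene, 5′ to 3′. Capitals mark matches to the C/EBP-type core TTGCNNAA or its reverse complement TTNNGCAA. ALB lies at chr4:73404037-73404336 (plus strand), AFP at chr4:73435971-73436270 (plus), FGB at chr4:154562730-154563029 (plus), FGA at chr4:154590693-154590992 (minus), FGG at chr4:154612607-154612906 (minus) and AHSG at chr3:186612810-186613109 (plus).
ALB: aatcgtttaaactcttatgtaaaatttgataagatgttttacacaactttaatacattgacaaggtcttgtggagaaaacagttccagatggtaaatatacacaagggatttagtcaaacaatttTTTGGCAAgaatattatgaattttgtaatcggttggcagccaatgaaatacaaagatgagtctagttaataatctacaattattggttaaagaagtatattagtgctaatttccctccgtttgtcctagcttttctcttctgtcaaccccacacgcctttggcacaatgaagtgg
AFP: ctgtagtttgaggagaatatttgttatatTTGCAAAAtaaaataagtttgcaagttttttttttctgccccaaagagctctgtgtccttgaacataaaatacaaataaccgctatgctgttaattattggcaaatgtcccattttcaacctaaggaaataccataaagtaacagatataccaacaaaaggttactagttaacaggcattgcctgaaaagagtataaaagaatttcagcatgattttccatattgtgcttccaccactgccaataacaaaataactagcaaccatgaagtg
FGB: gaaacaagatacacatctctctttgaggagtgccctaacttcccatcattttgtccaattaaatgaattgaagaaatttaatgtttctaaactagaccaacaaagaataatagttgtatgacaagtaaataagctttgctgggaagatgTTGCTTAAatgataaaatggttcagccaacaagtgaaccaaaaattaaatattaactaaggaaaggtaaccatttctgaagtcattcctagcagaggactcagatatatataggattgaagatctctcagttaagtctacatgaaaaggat
FGA: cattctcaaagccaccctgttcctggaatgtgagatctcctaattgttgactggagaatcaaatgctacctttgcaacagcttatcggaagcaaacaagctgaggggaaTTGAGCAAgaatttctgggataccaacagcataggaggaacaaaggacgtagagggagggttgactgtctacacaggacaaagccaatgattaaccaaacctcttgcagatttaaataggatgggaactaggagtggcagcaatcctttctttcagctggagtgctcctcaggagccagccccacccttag
FGG: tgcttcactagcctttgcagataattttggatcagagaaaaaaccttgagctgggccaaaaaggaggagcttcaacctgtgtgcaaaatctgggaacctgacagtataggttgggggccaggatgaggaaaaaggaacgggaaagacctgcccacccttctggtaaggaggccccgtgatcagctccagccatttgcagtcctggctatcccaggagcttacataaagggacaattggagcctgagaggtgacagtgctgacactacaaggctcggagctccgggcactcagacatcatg
AHSG: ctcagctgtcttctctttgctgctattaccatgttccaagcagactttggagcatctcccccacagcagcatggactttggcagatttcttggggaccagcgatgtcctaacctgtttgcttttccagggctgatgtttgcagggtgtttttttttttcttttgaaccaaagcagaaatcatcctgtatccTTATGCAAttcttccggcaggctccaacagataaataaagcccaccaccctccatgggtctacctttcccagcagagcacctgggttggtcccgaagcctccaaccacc

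The table held 12 promoter windows for 9 of the genes. The core was found in 7 of these windows, in AFP, AHSG, ALB, FGA, TF and both overlapping windows of FGB, and 10.5% of all 35116 promoters of this length held it. In the windows printed, its first base lay 125 bases before the start in ALB, 221 in AFP, 101 in FGB, 141 in FGA and 59 in AHSG. The FGG window held no such letters. Neither window of SERPINA1, which was also lower in depleted cells, held the core, nor did the window of AMBP. The hexamer CTGGGA, or TCCCAG on the other strand, which is the core of the interleukin-6 response element of fibrinogen genes, was in 6 of the 12 windows (AHSG, FGA, FGB, FGG and SERPINA1) and in 33.3% of all promoters. TGTTTNC or GNAAACA, a forkhead-type core, was in 5 of the windows (18.0% of all), CCAAT or ATTGG in 8 (34.6%) and TATAAA or TTTATA in 1, that of AFP (11.5%). The promoters of ALB, AFP and FGB were rich in A and T, with 33.3%, 33.0% and 32.7% G and C against a median of 58.7% over all promoters. AHSG, higher in depleted cells at 24 h, held the same core as ALB, AFP, FGB and FGA. TTR had no entry.

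Of the 9 genes past the filter, AFP had the largest difference averaged over the times, just ahead of ALB. At 24 h its signals were 160.0, 156.8 and 115.7 in depleted cells against 640.6, 592.6 and 445.2 in control cells (sets 1, 2 and 3 in this order here and below). At 48 h they were 373.9, 187.1 and 190.5 in depleted cells against 1284.2, 1176.3 and 863.1 in control cells. At 72 h they were 333.5, 110.0 and 176.2 in depleted cells against 1877.5, 1101.6 and 1133.1 in control cells. No depleted array reached any control array of any time, so depleted cells after 72 h still lay below control cells after 24 h. The difference was -1.84 at 24 h, -2.13 at 48 h and -2.72 at 72 h on the scale log2(signal + 16), each with an SE of 0.35 (n = 3 arrays a group), which is 3.58-fold, 4.37-fold and 6.60-fold lower. Averaged over the times it was -2.23 (SE 0.20), and -2.09 in sets 1 and 3 alone.

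ALB, serum albumin, the main carrier and osmotic protein of adult plasma, was also lower in depleted cells at each time. Its signals at 24 h were 128.1, 84.6 and 93.4 in depleted cells against 584.7, 284.6 and 538.0 in control cells. At 48 h they were 359.0, 125.4 and 187.4 in depleted cells against 1328.0, 758.6 and 940.0 in control cells. At 72 h they were 512.8, 139.0 and 160.7 in depleted cells against 1709.6, 817.4 and 1340.4 in control cells. The groups of each time did not overlap, while the highest depleted array at 72 h lay above the lowest control array at 24 h. The differences were -1.99, -2.18 and -2.36 at the 3 times (SE 0.45 each), and the average was -2.18 (SE 0.26), 4.52-fold lower. ALB was read by 4 probe sets, and the 2 other sets past the filter gave averages of -2.08 (SE 0.34) and -1.61 (SE 0.34). The set at -1.61 was at -1.09 in sets 1 and 3 alone, and its control signals in set 2 were 184.9 to 287.0 against 31.1 to 124.3 in the other sets. The dimmest set of ALB, outside the filter, was at -0.38 (SE 0.23).

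**Figure D1:**
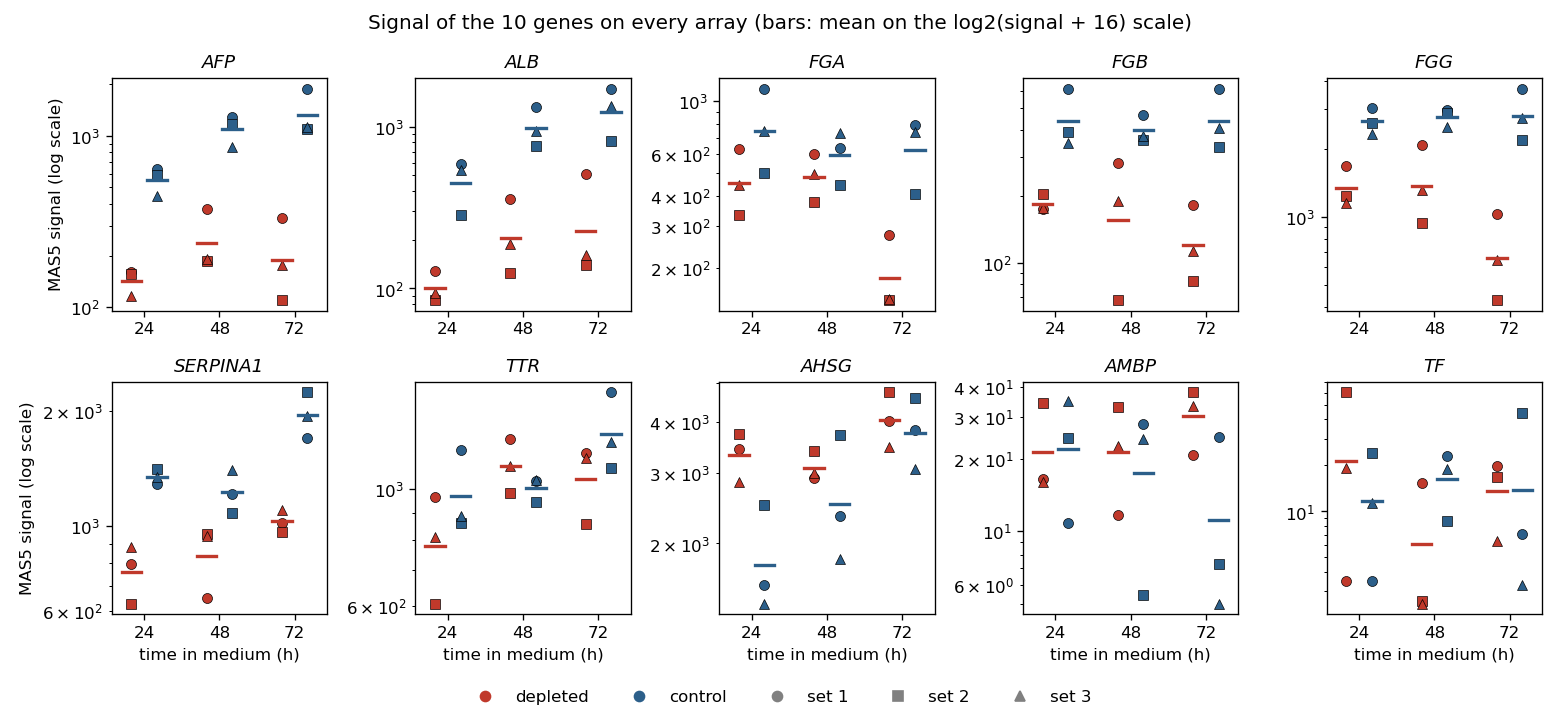
Signal of the brightest probe set of the 10 genes on each of the 18 arrays (log scale) by time in medium, for depleted (red, left) and control cells (blue, right); symbols give the set and bars the group mean on the log2(signal + 16) scale. For AFP, ALB, FGB, FGG and SERPINA1 the depleted arrays lie below the control arrays at every time, and for FGA at 72 h. The axes differ between panels.

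The fibrinogen chains were lower too, and on their brightest probe sets the gap was widest at 72 h. FGG, the gamma chain, had signals at 24 h of 1681.3, 1243.6 and 1157.5 in depleted cells against 3048.6, 2614.0 and 2327.6 in control cells. At 48 h these were 2091.0, 942.8 and 1321.5 in depleted cells against 2985.8, 2879.3 and 2500.8 in control cells. At 72 h they were 1027.2, 429.5 and 648.9 in depleted cells against 3681.3, 2195.8 and 2739.5 in control cells. Each time the groups were apart, and the depleted group at 72 h was the lowest of the 6. The difference in FGG was -0.97, -1.01 and -2.06 at the 3 times (SE 0.32 each), with an average of -1.35 (SE 0.18).

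FGB, the beta chain, had signals at 72 h of 182.9, 83.0 and 112.7 in depleted cells against 611.1, 334.9 and 405.5 in control cells. At 24 h they were 174.5, 204.4 and 177.6 in depleted cells against 611.7, 390.4 and 348.1 in control cells, and at 48 h 282.2, 67.6 and 189.4 against 468.0, 358.1 and 376.0. The groups were apart at each time, and the depleted array of set 2 at 48 h was the lowest of all. FGB differed by -1.39 on average (SE 0.22), and its second probe set by -1.24 (SE 0.13). FGA, the alpha chain, was the chain whose groups overlapped at 24 and 48 h. Its signals at 24 h were 627.9, 333.7 and 445.6 in depleted cells against 1117.4, 499.4 and 748.7 in control cells, and at 48 h 596.7, 379.0 and 493.1 against 635.8, 446.9 and 731.4. At 72 h they were 276.8, 147.4 and 149.1 in depleted cells against 790.3, 407.6 and 736.5 in control cells. Within every set and time the depleted array of FGA was the lower one, and the 72 h groups were apart. The difference was -0.70, -0.29 and -1.67 at the 3 times (SE 0.35 each). A second, dim probe set of FGA gave -0.49 on average (SE 0.13) but was higher in depleted cells in set 1 at 48 h (0.28), and one outside the filter -0.37 (SE 0.35).

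SERPINA1, alpha-1 antitrypsin, the plasma inhibitor of neutrophil elastase that enterocytes also make, was lower by a smaller amount. Its signals at 24 h were 796.9, 628.8 and 881.2 in depleted cells against 1290.8, 1408.5 and 1347.3 in control cells. At 48 h they were 649.6, 956.5 and 942.2 in depleted cells against 1216.2, 1080.8 and 1401.0 in control cells. At 72 h they were 1021.0, 968.9 and 1105.2 in depleted cells against 1704.2, 2236.9 and 1940.8 in control cells. The groups of each time did not overlap. The average difference was -0.75 (SE 0.12), 1.69-fold lower. A second bright probe set gave -0.85 (SE 0.27) with overlap at 24 and 48 h, where its set 2 signals stood below those of sets 1 and 3 in both media. It was 0.03 higher in depleted cells in set 2 at 48 h and lower in the other 8 comparisons. A dim set was at -0.40 (SE 0.23), lower in 7 of 9 comparisons and higher by 1.53 in set 2 at 48 h, and one outside the filter at -0.01 (SE 0.18).

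**Figure D2:**
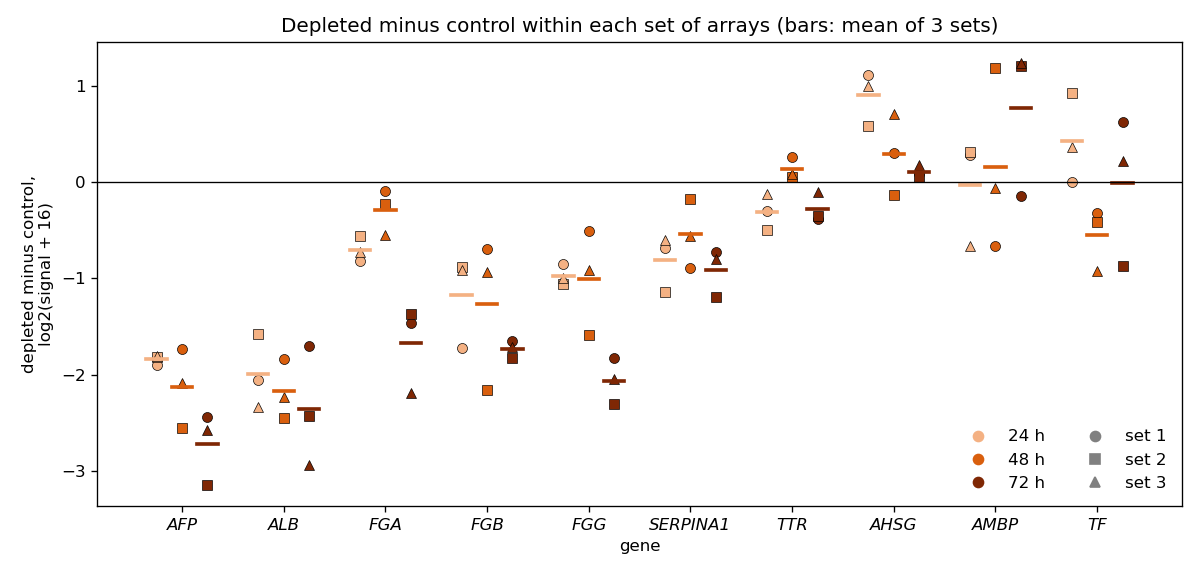
Depleted minus control on the log2(signal + 16) scale within each set of arrays, for the brightest probe set of each gene, at 24, 48 and 72 h (light to dark); symbols give the set and bars the mean of 3 sets. AFP, ALB, FGA, FGB, FGG and SERPINA1 lie below 0 in all 9 comparisons, whereas AHSG lies above 0 in 8 of 9 and TTR changes side at 48 h.

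AHSG, alpha-2-HS-glycoprotein or fetuin-A, a fetal plasma protein that keeps calcium phosphate in solution, went the other way at 24 h. Its signals were then 3442.3, 3747.5 and 2845.5 in depleted cells against 1576.8, 2486.4 and 1418.1 in control cells, and the groups did not overlap. At 48 h they were 2902.9, 3393.3 and 2990.9 in depleted cells against 2341.5, 3712.2 and 1825.7 in control cells. At 72 h they were 4042.3, 4754.0 and 3471.1 in depleted cells against 3823.5, 4592.4 and 3060.2 in control cells. Both later times overlapped. The difference was 0.90, 0.30 and 0.10 at the 3 times (SE 0.27 each), so AHSG was 1.87-fold higher at 24 h. The second probe set of AHSG gave 0.98, 0.80 and 0.14 (SE 0.35 each), but in set 2 at 24 h its signals were 482.8 in depleted and 496.9 in control cells.

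TTR, transthyretin, which carries thyroid hormone and the retinol-binding protein, was close in both media. Its signals at 24 h were 967.2, 605.3 and 811.5 in depleted cells against 1190.6, 862.9 and 887.5 in control cells. At 48 h they were 1248.5, 982.0 and 1106.8 in depleted cells against 1037.4, 944.4 and 1043.8 in control cells, and at 72 h 1170.8, 857.7 and 1144.8 against 1531.8, 1098.4 and 1233.4. The groups overlapped at all 3 times, although within each set the depleted array was lower at 24 and 72 h and higher at 48 h, and the average difference was -0.15 (SE 0.13). AMBP, the precursor of alpha-1-microglobulin and bikunin, had signals between 5.0 and 38.0 and an average of 0.30 (SE 0.20) that was at -0.0037 in sets 1 and 3 alone. Its other probe set lay outside the filter, at -0.01 (SE 0.18). TF, transferrin, the iron carrier of plasma, had signals between 2.5 and 60.3 on its brightest probe set, and its 4 probe sets gave averages from -0.10 to 0.17. On that brightest set and in AMBP the groups overlapped at every time. Among the 3 dimmer sets of TF, one was apart and lower at 24 h (-0.76) and apart and higher at 48 h (0.83, SE 0.29 each), and another apart and higher at 72 h (0.65, SE 0.31). The dim sets of TF therefore went different ways, at signals no higher than 28.4.

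Over the 9 genes past the filter the median average difference was -0.89, with 7 below and 2 above 0, while the median over all 12319 genes tested was 0.00. The arrays of the media were apart, with depleted lower, in 5 of 9 genes at 24 h (6.12% of all genes tested), 5 of 9 at 48 h (4.66%) and 6 of 9 at 72 h (13.4%). Depleted was apart and higher in 1 of 9 at 24 h, AHSG (8.05% of all), and in 0 of 9 at 48 h (6.65%) and 72 h (9.8%). In the averaged effect limma called 6 of the 9 lower (2.16% of all genes) and 0 higher (2.48%), and with the set as replicate block 6 lower (8.81%) and 1 higher, AHSG (8.4%). These contrasts were in view when the genes were chosen, so the calls are no test of these genes. Nothing is read from these counts. In sets 1 and 3 alone the averages were -0.97 for FGA, -1.27 for FGB, -1.19 for FGG, -0.71 for SERPINA1, -0.09 for TTR and 0.57 for AHSG. RNA came from whole cultures, in which fewer cells making a transcript and less of it in each cell cannot be told apart.

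AFP and ALB were higher at 72 h than at 24 h, and the fibrinogen chains were level or lower. Between 24 and 72 h AFP differed by 0.36 on the log2 scale in depleted cells and by 1.24 in control cells (SE 0.35 each), a 1.28-fold and a 2.36-fold higher signal at 72 h. ALB was 1.06 higher on the log2 scale in depleted cells and 1.43 higher in control cells (SE 0.45 each). On the brightest probe set ALB was higher at 72 h in each set of both media. AFP was higher in each control set but in 2 of 3 depleted sets, with 156.8 at 24 h and 110.0 at 72 h in the other. A dimmer probe set of ALB past the filter was lower at 72 h in set 3 of depleted cells (-0.26) and in set 2 of control cells (-0.15). FGG was at -1.01 (SE 0.32) in depleted cells and 0.08 (SE 0.32) in control cells between these times. FGA was at -1.24 in depleted and -0.27 in control cells (SE 0.35 each), and FGB at -0.56 and -0.00 (SE 0.38 each). On these brightest probe sets the 3 chains lay within 1 SE of no change in control cells. FGG and FGA were lower at 72 h in every depleted set, and FGB in 2 of 3. The second probe set of FGB was at -0.31 in control and -0.51 in depleted cells (SE 0.23 each). That of FGA was at -0.26 in control and -0.44 in depleted cells (SE 0.23 each). Both second probe sets were lower at 72 h in every set of both media.

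AHSG differed by 0.29 between 24 and 72 h in depleted cells and by 1.08 in control cells (SE 0.27 each), and the groups that were apart at 24 h overlapped at 72 h. SERPINA1 differed by 0.43 in depleted and 0.53 in control cells (SE 0.20 each), and TTR by 0.42 and 0.39 (SE 0.22 each). On their brightest probe sets both were higher at 72 h in all 3 sets of both media. A dim probe set of SERPINA1 was at -0.27 in depleted and 0.22 in control cells (SE 0.40 each). Over the 9 genes the median was 0.30 in depleted cells and 0.39 in control cells, against -0.02 and 0.01 over all genes tested. The depletion difference at 72 h minus that at 24 h was -1.09 (SE 0.45) for FGG, -0.97 (SE 0.49) for FGA, -0.88 (SE 0.49) for AFP and -0.80 (SE 0.39) for AHSG. For AMBP, near the filter, it was 0.79 (SE 0.49), for FGB -0.56 (SE 0.54) and for ALB -0.36 (SE 0.64), and for SERPINA1 and TTR -0.10 (SE 0.29) and 0.03 (SE 0.31). These values are from the brightest probe sets. The second sets gave only -0.18 (SE 0.33) for FGA and -0.20 (SE 0.32) for FGB, but -0.83 (SE 0.49) for AHSG. The dimmer sets past the filter gave -0.55 and -0.22 (SE 0.84 each) for ALB. Those of SERPINA1 gave 0.07 (SE 0.665) and -0.49 (SE 0.56). The FGA set outside the filter was at 0.53 (SE 0.85).

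**Figure D3:**
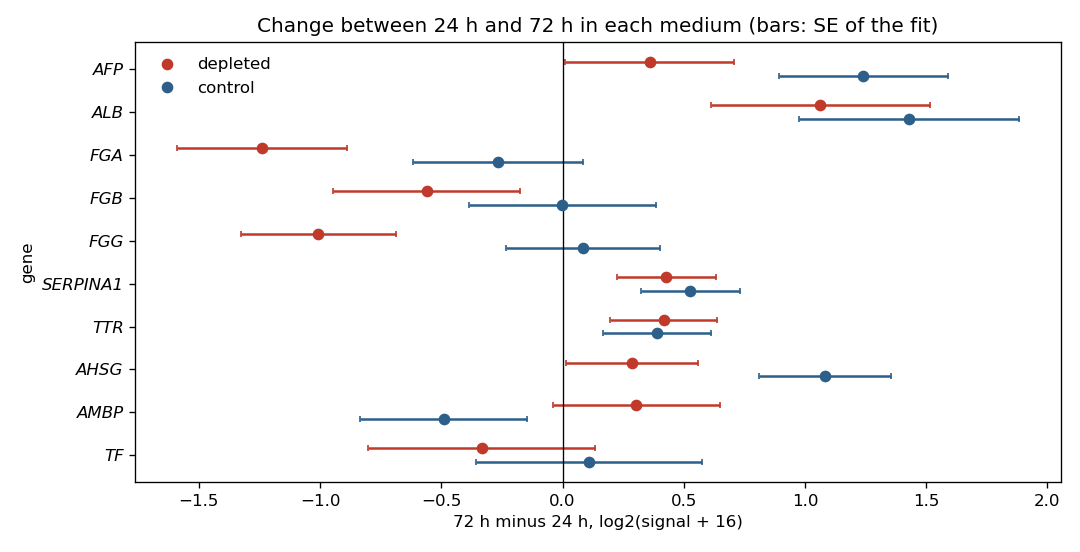
Difference between 72 h and 24 h on the log2(signal + 16) scale for each gene, in depleted (red, upper point) and control cells (blue, lower point), with the SE of the fit. FGA and FGG lie at -1.24 and -1.01 in depleted cells and at -0.27 and 0.08 in control cells, and AHSG at 0.29 and 1.08.

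The order of the 6 groups differed between the genes. In AFP, ALB, FGA, FGB, FGG and SERPINA1 all 3 depleted groups were lowest. The control means stood in the order of time in AFP, ALB, FGG, TTR and AHSG. For ALB the log2 means were 6.87, 7.79 and 7.93 in depleted cells at 24, 48 and 72 h and 8.86, 9.96 and 10.29 in control cells. In FGG the control groups lay between 11.38 and 11.46, and the depleted groups at 24 and 48 h (10.41 and 10.44) did not differ beyond their spread. In AHSG the control group at 24 h was the lowest (10.80) and both groups at 72 h the highest (11.99 depleted, 11.89 control).

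Over the 18 arrays, after the mean of each set was taken away, AFP and ALB correlated at 0.97 and FGB and FGG at 0.93 (Pearson). AHSG correlated at -0.65 with FGA and at 0.27 with TTR. These are descriptions: the arrays share their media and times, and the genes were chosen on them. Of 12310 other genes, those closest to the mean pattern of the 9 were SCD, the stearoyl-CoA desaturase (r = 0.94), the cholesterol synthesis enzymes FDPS (0.94) and ACAT2 (0.93), the surface protein IGDCC3 (0.92), the basement membrane protein NID1 (0.91), the DNA repair enzyme MGMT (0.91), the chromatin protein HMGA2 (0.91) and APOA1, the main protein of HDL (0.91). The most opposed were the galactosyltransferase B4GALT5 and TACC1 (both -0.91), NFAT5, the factor of the osmotic stress response (-0.91), and MTMR9 (-0.90). Since 7 of the 9 genes were lower in depleted cells, the pattern holds the difference between media by construction. Within the 9, AFP (0.97) and ALB (0.94) lay closest to the mean pattern and AHSG (-0.20) and AMBP (-0.39) farthest.

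Genes outside the 10 were tested in lists that follow the biology of these proteins. In the averaged effect 9 of the 108 measured genes of these lists passed, 7 lower (6.48% of them, against 2.16% of all genes tested) and 2 higher (1.85% against 2.48%). With the replicate block 18 passed, 14 lower (13.0% against 8.81%) and 4 higher (3.7% against 8.4%). These shares were not tested against each other, and a count of 1 or 2 in a short list is not set apart from them. The lists were chosen with earlier results of these data known, so a higher share in them is not an independent result. In sets 1 and 3 alone CEBPB, IL6R, CPS1 and APOB still passed (adjusted p = 0.0429, 0.0128, 0.0112 and 0.00383), and AGT, SERPINF2, APOC1, TDO2 and CD320 did not (0.0761, 0.0731, 0.0651, 0.182 and 0.0800). When 1 array was left out, APOC1 lost its call in 15 of 18 fits, SERPINF2 in 14, CD320 in 11 and APOB in 9, and the other 5 in none. Among hepatic transcription factors, 1 of 14 rose and none fell (median 0.22), with 2 higher under the block. It was CEBPB, a C/EBP factor of the acute phase response. Its signal ranged from 1522.1 to 3832.0 in depleted cells (median 1826.2) against 767.1 to 3082.8 in control cells (median 1244.0). CEBPB rose by 0.69 on the log2 scale (SE 0.14, adjusted p = 0.00907, limma), and was higher in all 9 set comparisons. Its difference was 1.20 at 24 h, 0.52 at 48 h and 0.36 at 72 h. The C/EBP factors CEBPA and CEBPD were at 0.25 (SE 0.29) and -0.02 (SE 0.22) and did not pass. Any part of C/EBP factors in the differences of the chosen genes was not tested. ZBTB20, which represses AFP in mouse liver after birth, was at 0.49 (SE 0.15, adjusted p = 0.0800, and 0.0353 with the block), with -0.00 at 72 h. PROX1, a factor of liver development, and ZHX2, known in mouse as a regulator of AFP, were at 0.46 (SE 0.16) and 0.47 (SE 0.21) and did not pass.

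Of 8 genes of the interleukin-6 route, 1 rose (1 with the block). It was IL6R, the receptor of interleukin-6, with signals of 94.2 to 147.3 in depleted cells against 37.9 to 103.8 in control cells (log2 0.71, SE 0.12, adjusted p = 0.00221). The signal transducers IL6ST and STAT3 were at -0.23 (SE 0.14) and 0.24 (SE 0.14), and the feedback inhibitor SOCS3 at -0.29 (SE 0.24). These 3 did not pass, and the median of the list was 0.02.

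Of 27 other liver proteins of plasma, 2 fell and none rose (2 and none with the block, median -0.09). AGT, angiotensinogen, fell by 0.59 (SE 0.13, adjusted p = 0.0147), with -0.09 at 24 h and -1.56 at 72 h. SERPINF2, the plasmin inhibitor, fell by 0.81 (SE 0.21, adjusted p = 0.0405). The complement protein C5 was at -0.35 (SE 0.16) and SERPINA10, an inhibitor of factor Xa, at -0.36 (SE 0.17), and neither passed. Of 8 apolipoproteins 2 fell (3 with the block, median -0.21), namely APOB by 0.94 (SE 0.23, adjusted p = 0.0288) and APOC1 by 0.56 (SE 0.15, adjusted p = 0.0401). APOA1 was at -0.54 (SE 0.15, adjusted p = 0.0525, and 0.00148 with the block), and APOC3 at -0.29 (SE 0.21).

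Of 11 liver enzymes and transporters 2 fell and none rose, and 4 fell and 1 rose with the block (median -0.17). CPS1, which opens the urea cycle, fell by 0.74 (SE 0.13, adjusted p = 0.00294). TDO2, which starts tryptophan breakdown, fell by 0.67 (SE 0.16, adjusted p = 0.0223). ASS1, a later enzyme of the urea cycle, was at 0.69 (SE 0.19, adjusted p = 0.0534) and passed under the block (adjusted p = 0.000265). ASS1 was at 1.39 at 24 h, 1.16 at 48 h and -0.49 at 72 h, so its average joins opposite signs. The bile acid carrier SLC10A1 was at -0.56 (SE 0.16, adjusted p = 0.0607, and 0.0116 with the block). The other gene lower under the block was FAH, of tyrosine breakdown (-0.53, SE 0.24, adjusted p = 0.0188 with the block).

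Of 9 partners and receptors of plasma proteins 1 fell, CD320, the receptor for transcobalamin (-0.54, SE 0.14, adjusted p = 0.0332), and 2 with the block, the other being LRP2, or megalin, which takes up albumin in the kidney (-0.77, SE 0.25, adjusted p = 0.0906, and 0.00659 with the block). TFR2, a transferrin receptor of the liver, was at 0.32 (SE 0.21) and MELTF, a membrane relative of transferrin, at 0.25 (SE 0.21), and neither passed. Of 25 genes of the signal peptide route and cargo receptors, limma called 0 without and 3 lower with the block (1 had an unadjusted p under 0.05). These 3 were SRP14, a part of the signal recognition particle (-0.35, SE 0.17, adjusted p = 0.00707 with the block), the cargo receptor SURF4 (-0.32, SE 0.13, 0.0286) and the translocon subunit SEC61B (-0.23, SE 0.13, 0.0382), and the signal peptidase subunit SPCS3 was at -0.19 (SE 0.11). Of 6 fetal genes limma called 0 either way, and 0 had an unadjusted p under 0.05. GPC3, an oncofetal glypican that liver tumours share with AFP, was at -0.22 (SE 0.20) and the imprinted gene PEG10 at -0.16 (SE 0.10). The median of the 6 was -0.16, that of the 25 was -0.10 and that of the 9 was -0.04.

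**Figure D4:**
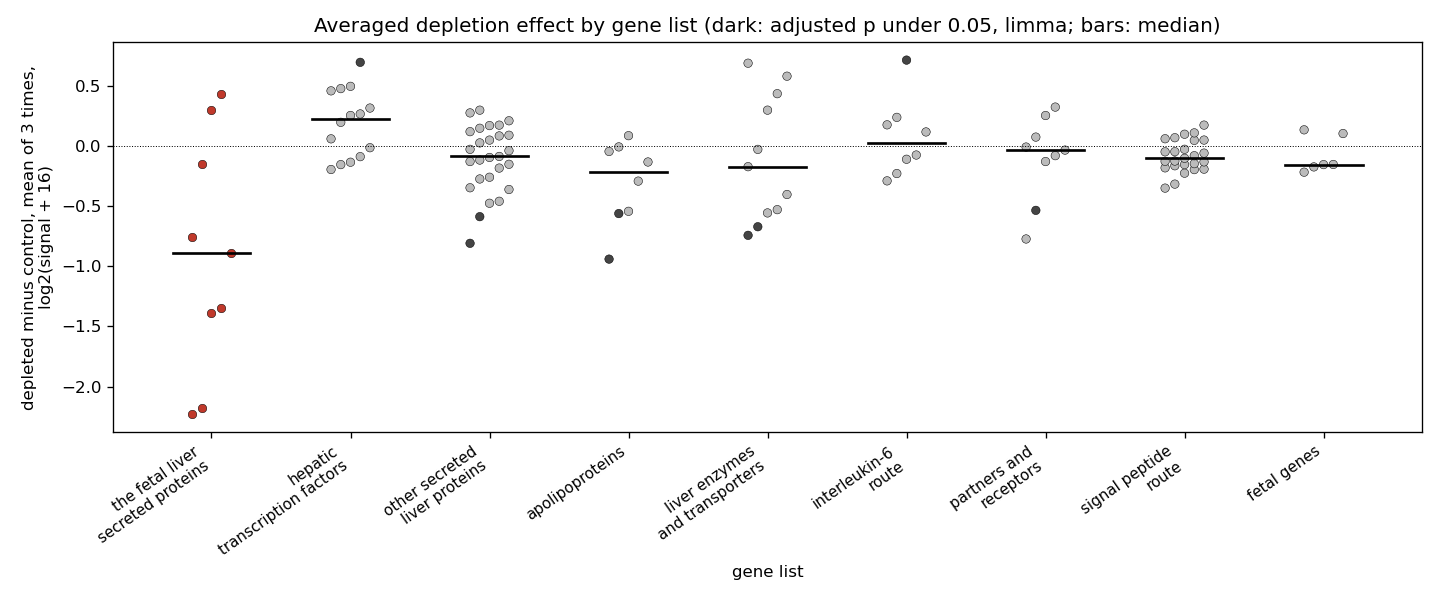
Averaged depletion effect (depleted minus control, mean of 3 times, log2(signal + 16)) of every gene past the filter in the 9 lists drawn (the marker lists are not), with the list median as a bar; dark points passed the test in limma, and the red points are the 9 chosen genes, for which no test is shown. The chosen genes reach -2.23 and the genes of the other lists drawn -0.94.

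Markers of cell types were read beside these results. Of 13 measured markers of the intestinal epithelium 2 fell, the sucrase-isomaltase SI (-0.92, SE 0.14, adjusted p = 0.00165) and the fatty acid-binding protein FABP1 (-1.36, SE 0.34, adjusted p = 0.0293), 2 with the block. Both were farthest down at 72 h, at -1.89 and -2.50. The summed signal of all 14 such markers on the array was 23876.6 to 32304.3 in depleted cells at 72 h against 24602.4 to 34097.2 in control cells. Of 5 of 7 fibroblast, 2 of 4 leukocyte and 1 of 2 erythroid markers on the array that were past the filter, limma called 0 (2, 1 and 0 had an unadjusted p under 0.05), and with the block COL1A1 was lower and LUM and LYZ were higher. The fibroblast markers summed to 404.9 to 514.2 in depleted and 506.6 to 634.9 in control cells at 72 h, and the leukocyte markers to 263.3 to 361.1 and 186.0 to 235.2. The part of these in the results was not tested.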

How the data were processed

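Gene expression was measured on Affymetrix arrays in 18 samples of Caco-2 cells. The deposited intensities are MAS5 signals on a linear scale, per the submitters' processing notes, whose version, genome build and scaling target are not given in the sources used here. The trimmed mean of each array (2% cut at each end) lay between 99.5 and 99.7, and no raw intensities or detection calls were used. For arrays the number of replicates limits the precision.

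Signals were taken as log2(signal + 16), which understates changes of dim genes. All fold values given are ratios of signal + 16 from this scale, not of the signal itself. The 54675 probe sets were reduced to 54613 without controls and to the 27307 whose mean was not under the median mean, 5.15 or a signal of 19.6. Symbols came from the platform annotation, and through Entrez IDs 41037 of 41091 probe sets with 1 symbol matched RefSeq (GRCh38.p14) with 0 changes. One limma 3.58.1 model (R 4.3.3) took all arrays with 6 group means, and Benjamini-Hochberg adjustment over all probe sets tested at 0.05. SEs are from this fit, and TF and other dim probe sets were fitted with no filter. The code of the fit was checked on simulated arrays drawn with no set effect. That check does not cover how the likeness of arrays within a set bears on the calls. Figures were drawn with matplotlib 3.10.9.

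The running numbers in the labels go through all groups once per set. After group means were removed, arrays correlated at 0.30 to 0.60 within sets and -0.75 to 0.16 between them, so the set was used as replicate block in a second fit. The members and lists were chosen with earlier results of these data known. All probe sets of the members are described. Of each other list the genes named were up to 4 by smallest p for the averaged effect, and by likeness the 8 closest and 4 most opposed genes. Other named genes were chosen after their values were seen. Alternatives were quantile normalization, 75th percentile centring, pseudocounts of 1 and 64, no filter or one at the 75th percentile, the mean over probe sets, the block, each array left out and, added after seeing the data, sets 1 and 3 alone.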

Additional observations from a re-analysis of the deposited data

Results flagged for a closer look

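TTR was below control in depleted cells in all 3 sets at 24 h, above it in all 3 at 48 h and below it in all 3 at 72 h, with differences of -0.31, 0.13 and -0.28 on the log2 scale (SE 0.22 each). The difference between the times was not tested, and the groups overlapped at each time.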

How the results depend on the processing

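The count of 9 genes of the other lists past the test was 18 with the replicate block and 5 of 161 genes with no filter, and lay between 5 and 8 when 1 array was left out, with 5 without control 72 h replicate 3. The calls of CEBPB, IL6R, CPS1, TDO2 and AGT held in all 18 fits that left out 1 array. APOC1 lost its call as the mean over its probe sets (adjusted p = 0.175). The causes of these changes were not tested, and the fits that left out 1 array also had fewer arrays. Among the chosen genes the median average difference of -0.89 was -1.12 with the filter at the 75th percentile and -0.69 as the mean over probe sets. The median change of the depletion difference ranged from -0.83 to -0.32 when 1 array was left out, that of time in control cells from 0.26 to 0.50 (0.46 with the stricter filter, 0.25 with none), and that of time in depleted cells from 0.19 to 0.35. The average of AMBP, a dim gene, reversed to -0.0037 in sets 1 and 3 alone, and its 0.30 was 0.62 with a pseudocount of 1, 0.12 with 64 and 0.19 without control 48 h replicate 2. AFP, ALB, FGA, FGB, FGG, SERPINA1, TTR and AHSG kept their direction in all 27 alternatives, AFP between -2.36 and -1.99. Detection calls were not used here, which limits what can be said of the dim AMBP and TF.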
